A study of Amolops torrentis with 15 samples.

Results

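The brains of female torrent frogs (Amolops torrentis) in an audiovisual group were compared with those in an acoustic group, 6 libraries out of the 15 in the series. Members were taken by the stimulus named in the labels, audiovisual for 3 libraries and acoustic for 3 others. Going by these names alone, the pair differs by a visual cue on top of sound. Each library was made from whole brain RNA, and the labels do not say whether a sample was a single frog or a pool, how old the frogs were, or what was played or shown. The other 9 libraries form the visual, dark contrast and blank contrast groups, 3 each, and were used to estimate the spread and to place a level. No agent or genetic change is given for any group, and nothing says that the samples of a group came from separate animals. All p-values are therefore about the variation among these particular samples, part of which can be technical.

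Many frogs that call beside noisy water add movements of the limbs or the vocal sac to the call, so that a female can receive a sound and a moving image together. Sound reaches the frog midbrain at the torus semicircularis, which lies under the optic tectum, where visual input arrives, and neurons in this region can receive both. Strongly driven neurons switch on immediate early genes such as fos, egr1, npas4, arc and junb, and transcripts of these genes are widely used as a record of recent neural activity.

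No transcript passed the test between the groups after adjustment for the number tested. edgeR's quasi-likelihood test with Benjamini-Hochberg adjustment called 0 of 42619 features (0%) at an adjusted p under 0.05, and the smallest adjusted p was 0.747. The smallest unadjusted p was 5.45e-05, whereas a lone call would have needed 1.17e-06. At an unadjusted p under 0.05 there were 2090 features, or 4.9% of those tested, of which 1073 (2.52%) were higher and 1017 (2.39%) lower in the audiovisual group. All 3 audiovisual libraries lay above all 3 acoustic libraries for 2152 features (5.05%) and below them for 2258 (5.3%), and 49.1% of features had a log2 fold change above 0. limma on log2(FPKM + 1) also called 0 features, with 2193 at an unadjusted p under 0.05. DESeq2 called 37 on the same counts, 23 higher and 14 lower, with 2324 at an unadjusted p under 0.05. The libraries of the groups did not overlap for any of those 37 features, and DESeq2 gave no adjusted p for 6627 others. Those 37 were picked on the same libraries, so that the lack of overlap adds no support to them.

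**Figure D1:**
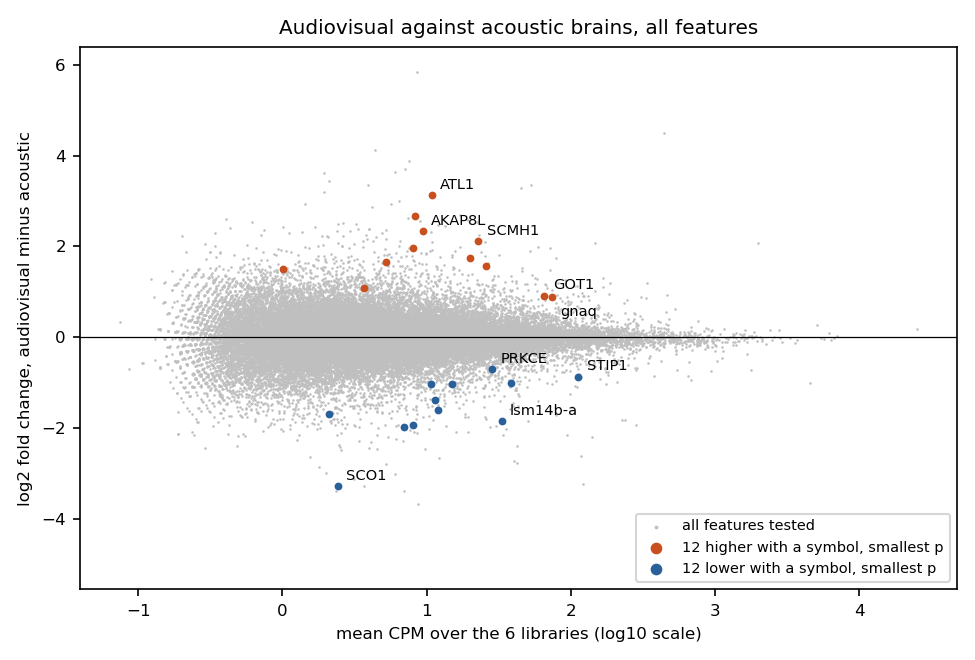
Each point is a feature, placed by its mean level over the 6 libraries (CPM, log10 axis) and its log2 fold change (audiovisual minus acoustic). The 24 coloured features are the 12 higher and 12 lower ones of smallest p among those that carry a symbol and whose libraries did not overlap, and the cloud around 0 narrows as the level grows.

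Totals of the 6 libraries ran from 13.87 to 16.83 M counts (mega-counts, sums of the deposited estimated reads), and the precision depended on the level. Levels are in CPM, the count of a feature divided by the TMM-scaled library total in M counts. The median half-width of the 95% interval of a log2 fold change was 0.791 over all features, 1.18 for features under 1 CPM, 0.841 from 1 to 10 CPM, 0.49 from 10 to 100 CPM and 0.297 from 100 CPM upward. A typical abundant transcript could thus have differed by that much on the log2 scale without reaching an unadjusted p under 0.05. It could have differed by more without passing after adjustment. Across features, the log2 levels of 2 libraries of the same group correlated at a mean Pearson r of 0.952 (0.95 to 0.954), and those of an audiovisual and an acoustic library at 0.951 (0.946 to 0.954). These correlations are over features, which are not independent replicates. Markers of brain tissue were abundant: myelin basic protein (MBP) stood at 6236 ± 1162 CPM in the audiovisual and 6458 ± 1021 CPM in the acoustic brains (mean ± SD, n = 3), and complexin-1 (Cplx1), a clamp on vesicle fusion, at 1791 ± 114 and 1748 ± 28.2 CPM.

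The immediate early genes, the usual readout of a stimulus in the brain, did not separate the audiovisual from the acoustic brains. For fos, which encodes a subunit of the AP-1 transcription factor, the audiovisual libraries held 27.9, 19.7 and 19.0 CPM and the acoustic libraries 28.0, 15.9 and 15.7 CPM. The highest fos library of each group was thus at almost the same level, and the log2 fold change was 0.16, with a 95% interval from -1.09 to 1.41. For egr1, a zinc finger transcription factor, the levels were 193, 111 and 131 CPM against 130, 120 and 114 CPM. A single audiovisual library stood above the rest, and the log2 fold change was 0.26 (95% interval -0.60 to 1.11). This feature's closest match in the deposited NR protein descriptions is another zinc finger protein, so that its identity is uncertain.

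For npas4, a factor switched on by calcium entry in neurons, the levels were 19.4, 12.5 and 18.8 CPM against 19.6, 16.4 and 15.4 CPM. The difference in npas4 was -0.02 (95% interval -0.94 to 0.90). For arc, whose protein acts in the trafficking of glutamate receptors at synapses, the levels were 96.9, 76.2 and 88.8 CPM against 99.0, 93.0 and 71.3 CPM. The arc groups overlapped throughout, with a log2 fold change of -0.01 (95% interval -0.75 to 0.74). For junb, another AP-1 subunit, the levels were 74.2, 48.3 and 68.5 CPM against 53.5, 50.9 and 56.2 CPM. Its log2 fold change was 0.25 (95% interval -0.60 to 1.10), and the lowest of the 6 libraries was an audiovisual one. Each of these 5 intervals includes 0, and each also includes a difference of 0.7 on the log2 scale, which these data cannot tell from none. The intervals rest on the spread over all 15 libraries, not on the audiovisual and acoustic libraries alone. Among the 15, dark contrast 2 was the lowest for all 5 genes. For fos it held 1.93 CPM, beside 17.9 and 23.2 CPM in the other dark contrast libraries. How much that library widens the intervals was not tested.

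Over the whole list of immediate early genes, 23 of 50 features were above 0 (46%, beside 49.1% of all features), with a median log2 fold change of -0.02 beside -0.01 over all features. In the summed level of the list, the audiovisual libraries ran from 1287 to 1492 CPM and the acoustic libraries from 1253 to 1471 CPM.

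**Figure D2:**
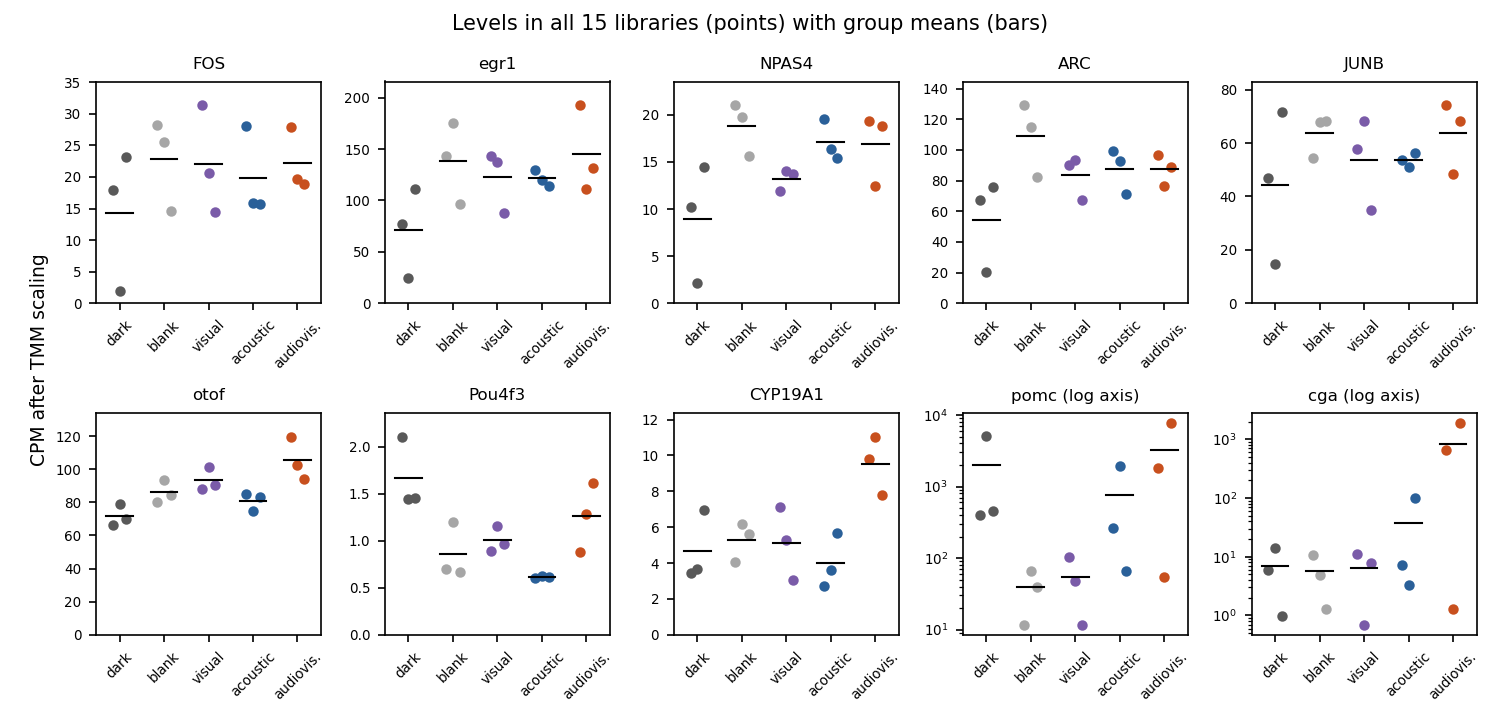
Levels in CPM of 5 immediate early genes (upper row) and of otof, Pou4f3, CYP19A1, pomc and cga (lower row) in all 15 libraries, by group; points are libraries and bars group means, and the axes of pomc and cga are logarithmic. The audiovisual and acoustic libraries overlap for all 5 immediate early genes and for pomc and cga, and do not overlap for otof, Pou4f3 and CYP19A1.

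The 12 features with a symbol of smallest p that were higher in the audiovisual brains without overlap had various functions. They were picked for this contrast, so that their values describe them and support nothing further. AKAP8L, a nuclear member of the A-kinase anchor protein family, stood at 7.49, 19.7 and 19.8 CPM in the audiovisual libraries and at 2.91, 2.61 and 3.80 CPM in the acoustic libraries. Every audiovisual library was above every acoustic library, although the first audiovisual library was well under the other two, and the difference was 2.33 on the log2 scale (SE 0.408; adjusted p = 0.747 by edgeR). The visual brains, at 2.96 ± 0.916 CPM, were as low as the acoustic ones, and the dark contrast brains, at 14.3 ± 5.85 CPM, as high as the audiovisual ones (SD, n = 3). The blank contrast brains lay between, at 9.37 ± 2.41 CPM.

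GOT1, the cytosolic aspartate aminotransferase that interconverts glutamate and aspartate, stood at 93.7, 82.7 and 81.4 CPM in the audiovisual libraries and at 47.3, 49.3 and 39.5 CPM in the acoustic libraries. The groups were far apart beside their spread, by 0.92 on the log2 scale (SE 0.167; adjusted p = 0.747 by edgeR). The acoustic mean was the lowest of the 5 groups: the visual brains held 85.9 ± 15.7 CPM, the dark contrast brains 67.5 ± 9.79 CPM and the blank contrast brains 64.5 ± 9.12 CPM.

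A pair of G protein alpha subunits, which carry the signal of membrane receptors into the cell, was among the 12 higher features. For gnaq, the subunit that activates phospholipase C, the audiovisual libraries held 97.9, 92.1 and 97.9 CPM and the acoustic libraries 45.8, 45.7 and 65.0 CPM. For gnaq the difference was 0.88 on the log2 scale (SE 0.186; adjusted p = 0.747 by edgeR), and the visual, dark and blank contrast means lay between, at 67.2, 64.8 and 68.7 CPM. For GNA13, the levels were 4.72, 5.84 and 4.48 CPM against 2.57, 2.30 and 2.24 CPM. For GNA13 the difference was 1.08 on the log2 scale (SE 0.258; adjusted p = 0.97 by edgeR), and the visual, dark and blank contrast means of 5.57, 5.31 and 5.12 CPM were all at the audiovisual level.

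The other higher features included PRR14, which tethers heterochromatin to the nuclear lamina in mammals, at 12.3, 12.7 and 13.3 CPM against 2.91, 4.42 and 2.51 CPM (log2 fold change 1.96, SE 0.394). CNNM3, of a family tied to magnesium transport, stood at 22.3, 36.6 and 33.4 CPM against 11.9, 5.66 and 10.1 CPM (1.74, SE 0.367). In both, the acoustic mean was the lowest of the 5 groups and the audiovisual mean the highest. The remaining 6 of the 12 were SIPA1L2, a synaptic regulator of the GTPase Rap (log2 fold change 1.66), ATL1, a GTPase that fuses membranes of the endoplasmic reticulum (3.13), Gpm6b, a neuronal membrane glycoprotein (1.51), the Polycomb protein SCMH1 (2.12), tcta (2.68) and lrrc9 (1.56). Their edgeR adjusted p ran from 0.747 to 0.97. Of the features without a symbol, which stand outside the 12, the one of smallest p by edgeR without overlap was Cluster-46846.149819 (log2 fold change 2.08).

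On the lower side, STIP1, the co-chaperone that links Hsp70 to Hsp90, was the most abundant of the 12. It stood at 85.4, 80.0 and 74.7 CPM in the audiovisual libraries and at 135, 164 and 137 CPM in the acoustic libraries. The audiovisual group was also under the visual (139 ± 41.7 CPM), dark contrast (132 ± 5.38 CPM) and blank contrast brains (182 ± 30.2 CPM). For STIP1 the difference was -0.86 on the log2 scale (SE 0.187; adjusted p = 0.762 by edgeR). Over the heat shock and chaperone list, 55 of 111 features were above 0 (49.5%). At an unadjusted p under 0.05 there were 2 of them (1.8%, beside 4.9% of all features), 1 higher and 1 lower. Hspa8, the constitutive Hsp70, had a log2 fold change of -0.10 (95% interval -0.32 to 0.12).

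PRKCE, the epsilon isoform of protein kinase C, stood at 23.2, 20.5 and 21.8 CPM against 36.5, 34.6 and 34.6 CPM, with little spread in either group (log2 fold change -0.69 with an SE of 0.166; adjusted p = 0.97 by edgeR). Its visual, dark and blank contrast means of 22.4, 22.4 and 26.5 CPM were nearer to the audiovisual level, which leaves the acoustic group as the high one. Hadha, a subunit of the mitochondrial enzyme of fatty acid oxidation, stood at 26.7, 19.9 and 30.4 CPM against 48.8, 49.98 and 56.7 CPM (log2 fold change -1.01 with an SE of 0.247; adjusted p = 0.97 by edgeR). Its visual, dark and blank contrast means of 48.3, 56.0 and 44.2 CPM were at the acoustic level. Another Hadha feature lay in the opposite direction without overlap, averaging 65.5 CPM in the audiovisual and 45.5 CPM in the acoustic brains (0.53, SE 0.26). Summed over both features, Hadha had a log2 fold change of -0.10 (SE 0.0922).

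The largest difference on the lower side among the 12 was in SCO1, which helps to assemble cytochrome c oxidase, at 0.315, 0.356 and 0.658 CPM against 2.64, 4.92 and 5.63 CPM (log2 fold change -3.27 with an SE of 0.852; adjusted p = 0.991 by edgeR). The audiovisual levels of SCO1 were thus all under 1 CPM. Its visual mean was also low, at 0.681 CPM, and its dark contrast mean was 4.78 CPM. The blank contrast libraries ran from 0.597 to 7.23 CPM. Summed over 3 features, SCO1 had a log2 fold change of -0.59 (SE 0.2). PISD, which makes phosphatidylethanolamine in mitochondria, stood at 3.46, 2.85 and 3.65 CPM against 24.5, 5.79 and 7.93 CPM. A single acoustic library set much of that difference, since the log2 fold change of -1.93 became -1.04 without acoustic 1. The other 7 were lsm14b-a, an RNA-binding protein of stored messages (-1.84), Ikbkg, a subunit of the kinase that activates NF-kappa-B (-1.61), NBN, of the DNA break repair complex with MRE11 and RAD50 (-1.96), UTP3, a factor of ribosomal RNA processing in yeast (-1.68), the RNA helicase Ddx41 (-1.37), the nucleotide hydrolase ENTPD4 (-1.02) and a feature matched to Ctcf (-1.01). Their edgeR adjusted p ran from 0.747 to 0.991. The Ctcf feature has a paralog, brother of regulator of imprinted sites, as its NR match. Outside the 12, the lower feature without a symbol of smallest p by edgeR without overlap was Cluster-46846.94049 (log2 fold change -1.79).

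**Figure D3:**
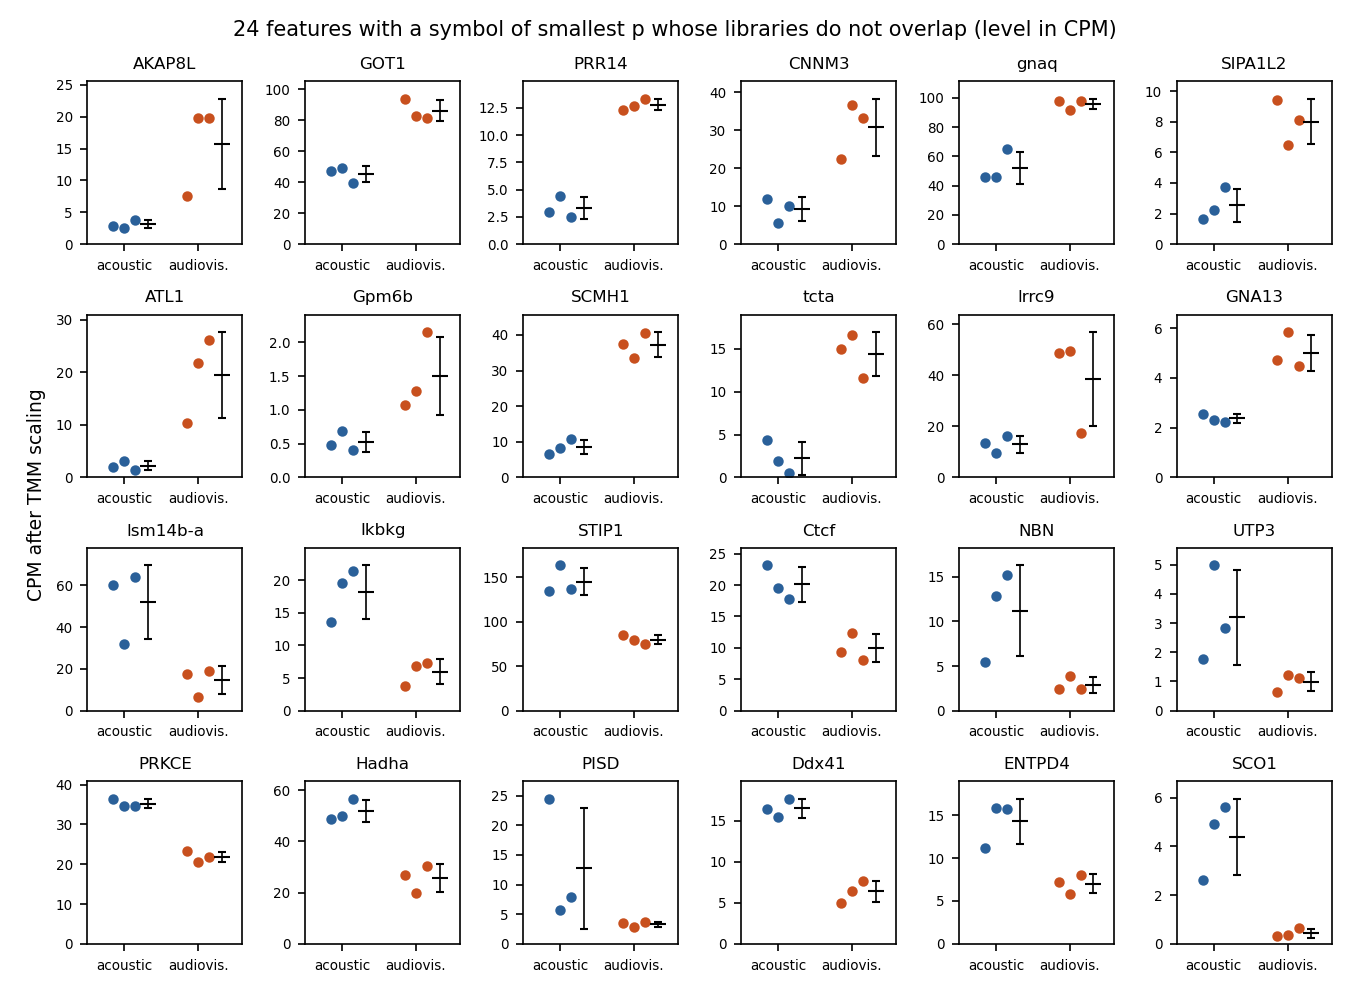
Levels in CPM of the 24 features with a symbol of smallest p without overlap, 12 higher (upper rows) and 12 lower (lower rows) in the audiovisual group; points are the 3 libraries of each group, and the bars beside them are means ± SD. Separation by group was the rule of choice, and the single high acoustic library of PISD and the low audiovisual library of AKAP8L are visible.

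Across the 24, the group that stood away from the other three differed from feature to feature. Of the 12 higher features, the audiovisual mean was the highest of the 5 groups in 10, the acoustic mean the lowest in 11, and both held in 9. Of the 12 lower features, the audiovisual mean was the lowest in 10, the acoustic mean the highest in 7, and both held in 5. This is a description of features chosen for a large difference between these same groups. DESeq2 called 14 of the 24, whereas edgeR called none. On the higher side these were AKAP8L, GOT1, PRR14, CNNM3, gnaq, SIPA1L2, ATL1, SCMH1 and tcta. On the lower side they were lsm14b-a, Ikbkg, Ctcf, NBN and SCO1. Their DESeq2 adjusted p ran from 0.000472 for AKAP8L to 0.0493 for SCO1. Of all 37 DESeq2 calls, 17 carried a symbol. The smallest DESeq2 adjusted p, 0.000122, was that of Cluster-46846.159936, which has no symbol (DESeq2 log2 fold change 5.9).

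Many of these differences concerned a single feature of a gene and not the gene's summed reads. The deposited features are assembled transcript clusters, and 12057 of the features tested with a symbol (67.2%) share it with another feature, so that reads of a gene can be divided among several. Of the 24, 6 were the lone feature of their symbol, all of them higher in the audiovisual brains (AKAP8L, GOT1, PRR14, gnaq, tcta and GNA13). The other 18 had between 2 and 7 features each, and in 14 of those the log2 fold change of the summed counts was under 50% of the feature's own.

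In SCMH1, a pair of features lay in opposite directions. The feature named above averaged 37.2 CPM in the audiovisual and 8.56 CPM in the acoustic brains, while the other SCMH1 feature averaged 29.4 and 46.6 CPM, a log2 fold change of -0.67 (SE 0.233). Summed over both, SCMH1 had a log2 fold change of 0.26 (SE 0.128). Ikbkg did likewise, with -1.61 for the feature named above, 0.54 (SE 0.177) for a second feature and -0.25 (SE 0.159) for the sum of 3. ATL1 went from 3.13 for a feature of 1483 bases to 0.27 (SE 0.114) for the sum, because a feature of 3396 bases with a log2 fold change of 0.08 held most of the reads. Gpm6b, with 7 features, went from 1.51 to 0.00 (SE 0.118). Whether such features are splice forms, alleles or fragments of 1 transcript was not tested.

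With counts summed per symbol, edgeR called 0 of 10309 symbols, with 522 (5.06%) at an unadjusted p under 0.05. The smallest adjusted p was 0.41, for AKAP8L and GOT1. STIP1 and PRKCE, each with 2 features, had sums at -0.86 (SE 0.178) and -0.64 (SE 0.133). Their second features held few reads, averaging 2.30 and 3.34 CPM for STIP1 and 3.47 and 3.88 CPM for PRKCE (audiovisual and acoustic). These 2 sums thus largely repeat the features named above and add no separate support. CNNM3, with 3 features, stood at 1.03 (SE 0.219).

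**Figure D4:**
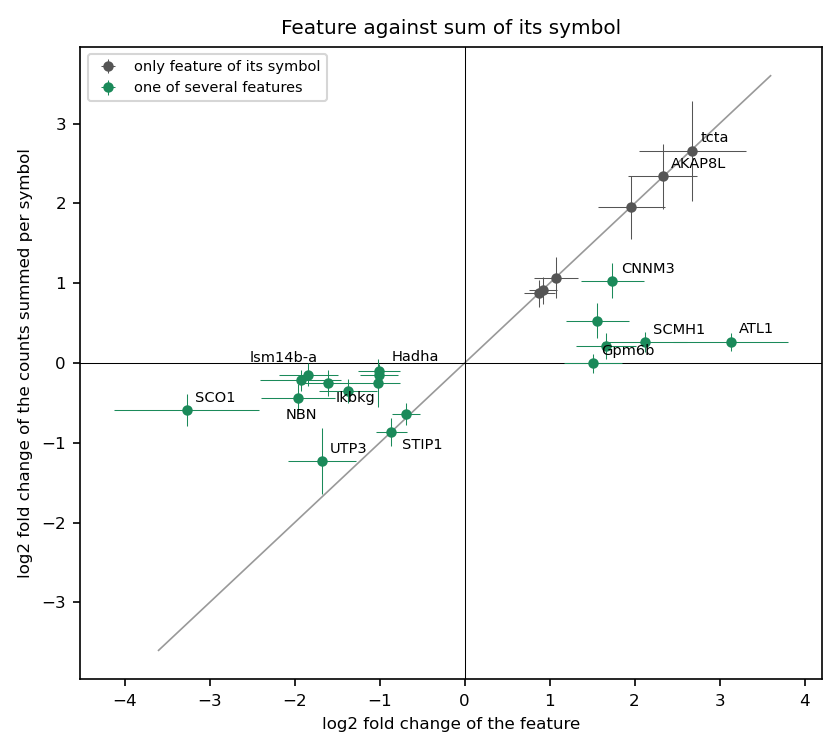
Log2 fold change (audiovisual minus acoustic) of each of the 24 features (horizontal) against that of the counts summed over all features of its symbol (vertical); bars are SE and the diagonal marks equality. The 6 lone features lie on the diagonal, and most of the 18 others lie near 0 on the vertical axis.

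No sensory gene passed the test after adjustment. For otof, which encodes otoferlin, a calcium sensor of vesicle release in hair cells that is also made in the brain, the audiovisual libraries held 120, 102 and 94.3 CPM and the acoustic libraries 85.3, 74.6 and 83.3 CPM. The groups did not overlap (log2 fold change 0.38, 95% interval 0.11 to 0.65, edgeR adjusted p = 0.991). The visual and blank contrast means lay between, at 93.3 ± 7.21 and 86.1 ± 6.76 CPM. The dark contrast mean was under the acoustic one, at 71.7 ± 6.4 CPM. For Pou4f3, a transcription factor of hair cells, the levels were 0.881, 1.28 and 1.61 CPM against 0.609, 0.622 and 0.610 CPM (log2 fold change 1.03, 95% interval 0.30 to 1.76, edgeR adjusted p = 0.991). The dark contrast brains were higher still, at 1.67 ± 0.378 CPM. Of the 16 inner ear and hair cell features, 11 were above 0 (68.8%, median log2 fold change 0.19), and 2 (12.5%, beside 4.9% of all features), otof and Pou4f3, were at an unadjusted p under 0.05. That median came to 0.03 with counts summed per symbol and 0.06 without acoustic 1. Summed over the list, the audiovisual libraries held 328 to 357 CPM and the acoustic libraries 290 to 336 CPM.

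The vision and photoreceptor list, the one closest to the added cue by name, had 7 of 19 features above 0 (36.8%), with a median of -0.07. NR2E3, a nuclear receptor of photoreceptors, was its lone member at an unadjusted p under 0.05 (5.26%, beside 4.9% of all features). NR2E3 stood at 2.89, 1.42 and 1.61 CPM against 5.61, 4.54 and 2.78 CPM, with overlap (log2 fold change -1.12, SE 0.48). RBP4, the carrier of retinol in plasma, was the most abundant member of the list and ranged from 54.3 to 255 CPM in the audiovisual and from 109 to 319 CPM in the acoustic libraries. Of the transcription factors that mark the tectum and the auditory midbrain, 23 of 43 features were above 0, with 5 (11.6%, beside 4.9% of all features) at an unadjusted p under 0.05, 3 higher and 2 lower. Among them, TFAP2B had a log2 fold change of -0.85 (SE 0.352), and of -0.31 (SE 0.183) summed over its 5 features. With a library left out, the log2 fold change of the TFAP2B feature ran from -1.54 without audiovisual 2 to -0.58 without audiovisual 3. For PAX2 it was -1.02 (SE 0.428) for the feature and 0.04 (SE 0.322) summed over 2. For gata2 it was 0.72 (SE 0.3) for the feature and 0.57 (SE 0.21) summed over 2. In whole brain RNA, fewer cells of a type and less RNA per cell cannot be told apart.

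No gene of synaptic transmission passed the test after adjustment. Of 138 glutamate features 64 were above 0 (46.4%), of 63 GABA and glycine features 32 (50.8%), of 24 acetylcholine features 14 (58.3%), and of 117 synaptic vesicle and release features 52 (44.4%). Medians of these lists lay between -0.02 and 0.03. All audiovisual libraries lay above all acoustic libraries for 11 glutamate features and below them for 1, and for 5 and 1 of the GABA and glycine features. These counts were 6 and 9 for the synaptic vesicle and release features, and 1 and 1 for the acetylcholine features. Over all features the shares were 5.05% above and 5.3% below. Of the vesicle list, 6 features (5.13%, beside 4.9% of all features) were at an unadjusted p under 0.05, 2 higher and 4 lower. DNM1, the dynamin of synaptic vesicle recycling, had the smallest p of the list, at 247, 289 and 193 CPM against 86.0, 130 and 161 CPM. Its log2 fold change was 0.95 (SE 0.266; adjusted p = 0.991 by edgeR), but -0.19 for the sum of its 5 features. The lower members included RIMS1, with overlap (log2 fold change -1.79, SE 0.554), whose 6 features summed to 0.03. Rims2 was lower without overlap (-1.38, SE 0.561), and its 2 features summed to -0.54. For GRIA3, a subunit of AMPA glutamate receptors, the levels were 34.5, 29.8 and 23.9 CPM against 18.4, 21.2 and 20.9 CPM (log2 fold change 0.54 with an SE of 0.163; adjusted p = 0.991 by edgeR), and the sum of its 8 features gave 0.07.

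The features of Slc6a11, a GABA transporter of glia, were both lower, with log2 fold changes of -0.78 (SE 0.289) and -0.68 (SE 0.296), and overlapped between groups. With a library left out, the latter ran from -1.11 without audiovisual 2 to -0.47 without audiovisual 3. Of the monoamine features, 32 of 44 were above 0 (72.7%) with a median of 0.06, and none of those 32 reached an unadjusted p under 0.05. The lone member that did (2.27% of the 44, beside 4.9% of all features) was DRD4, a dopamine receptor. DRD4 was at 1.64, 1.64 and 3.41 CPM against 4.06, 3.98 and 4.07 CPM (log2 fold change -0.85, SE 0.375). With a library left out, DRD4 ran from -1.30 without audiovisual 3 to -0.66 without audiovisual 1. TPH2, the enzyme of serotonin synthesis in the brain, stood at 57.0, 65.1 and 23.6 CPM against 69.5, 61.5 and 60.3 CPM, the third audiovisual library being the one away from the rest. Voltage-gated channels had 41 of 73 potassium and 60 of 107 sodium and calcium features above 0, with medians of 0.04 for each.

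**Figure D5:**
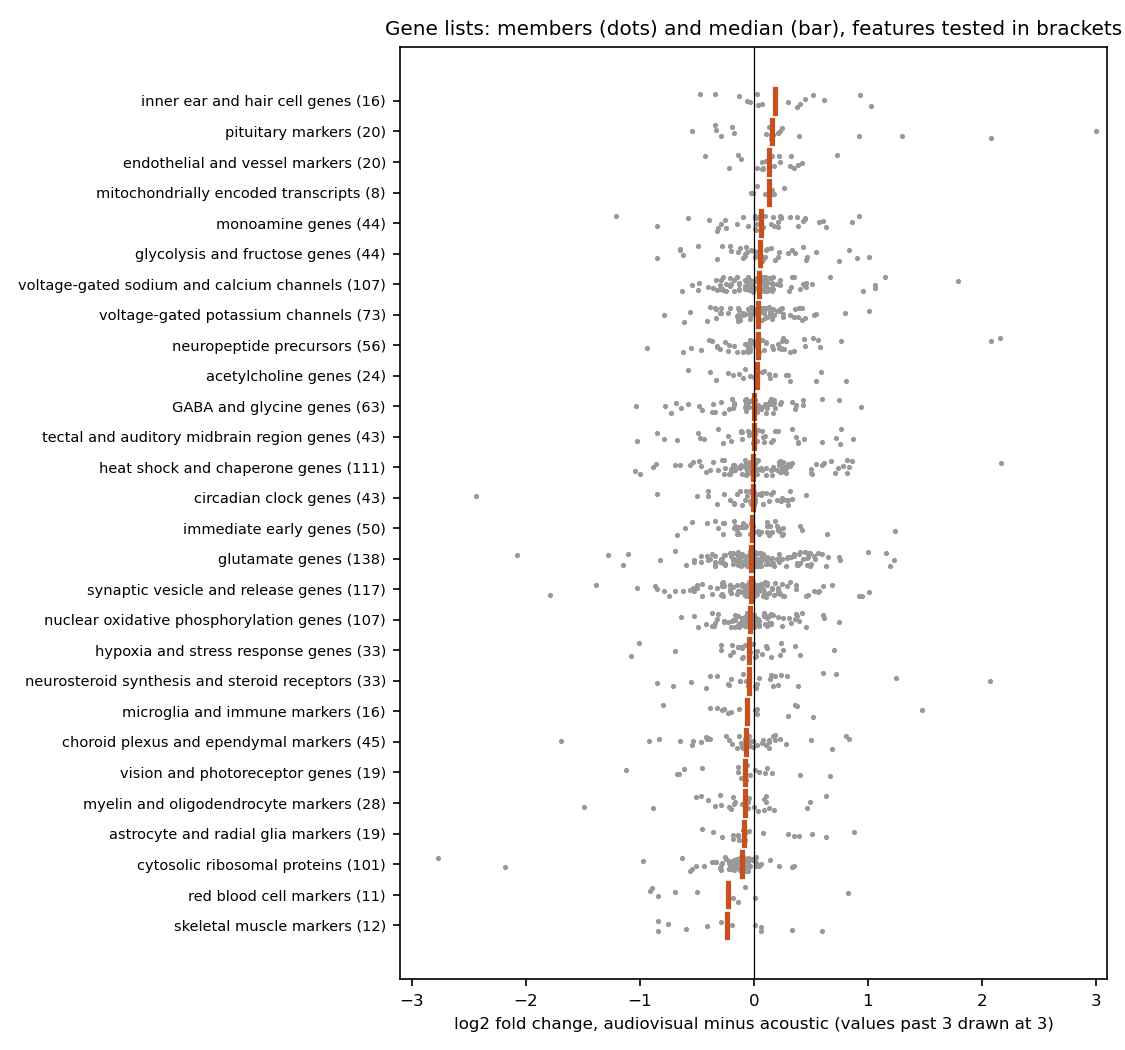
Log2 fold changes (audiovisual minus acoustic) of the members of 28 gene lists, with the number of features tested in brackets; dots are features, bars list medians, and values past 3 are drawn at 3. Of the 28 medians 12 are above 0, and they range from -0.24 in skeletal muscle markers to 0.19 in inner ear genes.

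Among hormone genes, aromatase (CYP19A1), which turns androgens into estrogens, stood at 9.81, 11.04 and 7.77 CPM in the audiovisual libraries and at 2.71, 3.61 and 5.69 CPM in the acoustic libraries. The groups did not overlap, and the log2 fold change was 1.25 (SE 0.375; adjusted p = 0.991 by edgeR). The visual, dark contrast and blank contrast brains were at 5.14 ± 2.04, 4.69 ± 1.97 and 5.27 ± 1.11 CPM, near the acoustic level of 4.003 ± 1.53 CPM. CYP19A1 was a single feature of its symbol. The whole neurosteroid and steroid receptor list had 16 of 33 features above 0 (48.5%), this gene included. At an unadjusted p under 0.05 there were 4 (12.1%, beside 4.9% of all features), 2 higher and 2 lower. One of the lower ones was HSD17B8, an estradiol dehydrogenase, with overlap (log2 fold change -0.85, SE 0.379). In STARD9, a motor protein with a lipid transfer domain, the log2 fold change of 2.07 came from audiovisual 2 (601 CPM, beside 50.8 to 63.9 CPM in the 5 others) and was 0.04 without it.

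The pituitary hormone precursors spread over orders of magnitude within each group. For pomc, the precursor of corticotropin and melanotropin, the audiovisual libraries held 1820, 54.3 and 7712 CPM and the acoustic libraries 266, 1941 and 66.8 CPM. The difference in pomc was 2.08 on the log2 scale, with a 95% interval from -1.09 to 5.24, and was 0.31 without audiovisual 3 and 4.26 without acoustic 2. For cga, the alpha chain shared by the glycoprotein hormones, the levels were 654, 1.28 and 1888 CPM against 7.30, 3.30 and 102 CPM. For cga the difference was 4.50 on the log2 scale (SE 1.76; adjusted p = 0.999 by edgeR), and ranged from 3.13 without audiovisual 3 to 7.32 without acoustic 3. The second audiovisual library was the lowest of the 6 for both genes.

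Of 20 pituitary marker features, 14 were above 0 (70%), with a median of 0.16. At an unadjusted p under 0.05 there were 2 (10%, beside 4.9% of all features), 1 higher and 1 lower. The summed level of the list ran from 2617 to 12636 CPM in the audiovisual and from 2390 to 4235 CPM in the acoustic libraries. The part of pituitary tissue in these values was not tested. Among neuropeptide precursors other than pomc, NTS, the precursor of neurotensin, stood at 7.36, 9.69 and 1.91 CPM against 0.541, 1.18 and 2.51 CPM (log2 fold change 2.16, SE 0.645), and its 2 features summed to -0.15. The peptide gene grp was at 5.16, 1.85 and 4.96 CPM against 7.51, 7.78 and 7.73 CPM (log2 fold change -0.94, SE 0.42, and -0.60 without audiovisual 2). Of 56 precursor features 30 were above 0 (53.6%).

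Cytosolic ribosomal proteins had the lowest share of members above 0 of the 28 lists. Of 101 features 88 were below 0, so that 12.9% were above 0 beside 49.1% of all features, with a median log2 fold change of -0.10. There were 18 members with all audiovisual libraries below all acoustic libraries (beside 5.3% of all features) and 0 with the reverse (beside 5.05%). The differences were small: 2 members (1.98%, beside 4.9% of all features) were at an unadjusted p under 0.05, and none passed after adjustment. For rpl5-a, of the large subunit, the levels were 853, 784 and 830 CPM against 911, 990 and 953 CPM (log2 fold change -0.21 with an SE of 0.0772; adjusted p = 0.998 by edgeR). For Gnb2l1, a scaffold protein on the small subunit, the log2 fold change of -2.77 came largely from acoustic 3 and was -0.87 without it. Summed over its 2 features, Gnb2l1 had a log2 fold change of -0.08 (SE 0.0986).

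Summed over the list, ribosomal protein transcripts made up 66571, 62305 and 67541 CPM in the audiovisual and 69033, 71802 and 69737 CPM in the acoustic libraries. The median of the list stayed between -0.12 and -0.08 in all 15 alternative settings. Ribosomal protein genes share their scaling and their library, so that their number says nothing of how many independent observations there were. Nuclear genes of oxidative phosphorylation had 39 of 107 features above 0 (36.4%) and a median of -0.04, whereas the mitochondrially encoded transcripts had 6 of 8 above 0 and a median of 0.13. Without audiovisual 3 the medians were 0.01 for the nuclear and -0.03 for the mitochondrial list, and without acoustic 2 the mitochondrial median was 0.01. Of the mitochondrially encoded transcripts, mt-cyb (cytochrome b) had a log2 fold change of 0.27 (95% interval -0.03 to 0.58) and MT-ND1 (a subunit of complex I) of 0.03 (95% interval -0.27 to 0.33).

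No metabolic or stress gene passed the test after adjustment. Khk, the enzyme that phosphorylates fructose, stood at 13.8, 10.8 and 7.47 CPM against 3.72, 6.10 and 9.29 CPM, with overlap (log2 fold change 0.75 with an SE of 0.335; adjusted p = 0.999 by edgeR). Without acoustic 1 the log2 fold change of Khk was 0.48. Of 44 glycolysis and fructose features 27 were above 0 (61.4%), and GAPDH, the most abundant, had an interval from -0.30 to 0.17. The heat shock factor HSF2 had a log2 fold change of -0.02 (95% interval -0.40 to 0.37). Of the 33 hypoxia and stress features 13 were above 0, and of the 43 circadian clock features 21.

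Markers of cell types that a whole brain sample can hold varied between libraries of the same group. Red blood cell markers had 2 of 11 features above 0 (18.2%, median -0.22), and their summed level ran from 641 to 913 CPM in the audiovisual and from 717 to 1888 CPM in the acoustic libraries. The upper end was set by HBB, a hemoglobin chain, in acoustic 3 (1521 CPM, beside 388 to 584 CPM in the 5 others), and the log2 fold change of HBB was -0.84 with that library and -0.07 without it. Endothelial and vessel markers had 16 of 20 above 0 (80%, median 0.13), with none at an unadjusted p under 0.05 and summed levels of 226 to 274 CPM against 227 to 242 CPM. Myelin markers had 10 of 28 above 0, astrocyte and radial glia markers 7 of 19, choroid plexus and ependymal markers 16 of 45, skeletal muscle markers 5 of 12, and microglia and immune markers 8 of 16. The immune list summed to 143, 183 and 413 CPM against 203, 267 and 364 CPM. Its member of smallest p carried the symbol ITGAM (1.57, 1.14 and 3.41 CPM against 1.01, 0.436 and 0.746 CPM), but has another integrin chain as its NR match. In GLUL, the glutamine synthetase of astrocytes, the main feature stood at 1868, 1891 and 588 CPM against 1780, 2397 and 1407 CPM, the third audiovisual library again being the low one. Another GLUL feature, at 32.4, 29.5 and 28.4 CPM against 46.5, 38.4 and 38.5 CPM, was lower without overlap (log2 fold change -0.45, SE 0.144). The glutamate transporter SLC1A2 was higher without overlap, at 67.1, 49.2 and 46.4 CPM against 35.8, 44.3 and 25.2 CPM (0.63, SE 0.254). These 2 features were the members of the astrocyte list at an unadjusted p under 0.05 (10.5%, beside 4.9% of all features). The part of such differences in cell content in the values above was not tested.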

How the data were processed

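Per the labels' protocols, whole brains were kept in RNAlater, RNA was extracted with Trizol, and NEBNext Ultra libraries were read as 150-base pairs on an Illumina X-ten. The authors deposited estimated counts per transcript cluster, not normalized, and FPKM, which divides fragments by feature length and library size, per the file headers, with Swiss-Prot and NR protein matches. Which assembler, aligner and quantifier were run is not given in the sources used here. Gene symbols come from the Swiss-Prot match.

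Estimated counts were rounded to whole numbers. Of 44351 features deposited, the 42619 whose FPKM averaged 1 or more over 15 libraries were scaled by TMM and fitted with edgeR 4.0.16 (R 4.3.3), with 5 groups sharing 1 spread (common biological coefficient of variation 0.329, residual degrees of freedom 10). The SE is the absolute log2 fold change over the square root of F, and p-values were adjusted by Benjamini-Hochberg over all features. The steps were tested on simulated data. The lowest deposited FPKM is 0.31, so genes silent in a library are not analysed here. Sums per symbol were scaled over symbol-carrying features, so their CPM differ from those of features. Alternatives used limma 3.58.1 and DESeq2 1.42.0 (limma on log2 FPKM with a pseudocount of 1 or 0.1), other scaling and filters, the 6 libraries alone, the sample number as a block, sums per symbol and each library left out.

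Named features were, among those with a symbol, the 12 higher and 12 lower of smallest p without overlap, then 1 higher and 1 lower without a symbol by the same rule (others without a symbol were passed over, some of smaller p), 5 immediate early genes, up to 3 members per list at an unadjusted p under 0.05, the most abundant member of each list, and 8 genes of interest. Some genes that this rule names are not reported here. Other members and the symbols' further features were named after their values were seen. The comparison, the lists and the named genes were chosen with earlier results of these data known.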

Additional observations from a re-analysis of the deposited data

How the results depend on the processing

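The count of called features was 0 in 12 of the 15 alternative settings. It was 37 with DESeq2 (23 higher, 14 lower), and leaving out each library in turn gave 0 to 1. The call without audiovisual 1 was LHFP (log2 fold change -1.99, edgeR adjusted p = 0.0244), which stood at 29.5, 5.56 and 6.82 CPM against 25.4, 24.5 and 24.6 CPM and had a log2 fold change of -0.83 with all libraries. The call without audiovisual 2 was Cluster-46846.159448 (-2.64, edgeR adjusted p = 0.0205), at 5.79, 55.6 and 7.77 CPM against 47.3, 46.7 and 33.4 CPM and -0.88 with all libraries. Both were named after their values were seen, and the cause was not tested. Features at an unadjusted p under 0.05 numbered 1913 to 2391 when a library was left out, and 522 with counts summed per symbol, where fewer units (10309) were tested. Their split was 1073 higher and 1017 lower as reported, 963 and 1176 without audiovisual 3, and 1339 and 1052 without acoustic 2. No shared deviation of same-numbered libraries was seen: their deviations from the group means correlated at -0.00, 0.01 and 0.02. The labels do not say whether a sample number is shared between groups. With the replicate block edgeR called 0 features, with 2114 at an unadjusted p under 0.05 and 12 of 28 list medians above 0.

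Between 10 and 17 of the 28 list medians were above 0 when a library was left out, and 9 lists kept the sign of their median in all settings. Of the 104 named features, 27 had another sign in at least 1 setting, none of them called, and 16 were called in at least 1. Intervals were widest for features under 1 CPM, where a typical 95% interval spans 1.18 on each side on the log2 scale. The part of depth in that width was not tested.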
